A study of Mus musculus with 35 samples.

Results

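The 29 genes described here are GABA receptor, GABA metabolism and interneuron subtype genes, taken by name from the 14870 genes of the expression matrix, and all 29 were measured. The study sequenced RNA of whole tissue punched from the mouse medial prefrontal cortex (mPFC), in 19 wild-type (WT) and 16 Shank3-deficient (KO) libraries. Shank3 encodes a scaffold protein of excitatory synapses. Mice of both genotypes received water (control; 6 WT and 4 KO libraries), antibiotics (abx; 4 and 3), acetate (5 and 5) or antibiotics plus acetate (abx_and_acetate; 4 and 4). The labels give no age, antibiotic, acetate dose or duration, and call the KO deficient without naming the allele. They do not say that each library came from a separate mouse, so the error behind each p-value is the spread between libraries, which may be partly technical.

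GABA is the main inhibitory transmitter of the cortex. It opens GABA-A receptors, which are chloride channels built of several subunits, and it activates GABA-B receptors, which signal through G proteins. Cortical GABA neurons are local interneurons, and their classes are told apart by the calcium-binding proteins and neuropeptides they make, such as parvalbumin, somatostatin and vasoactive intestinal peptide.

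Several libraries stood apart from their groups. Shank3 was between 4.07 and 5.11 log2 CPM (reads scaled to the size of the library, on the log2 scale) in the 16 KO libraries and between 7.48 and 8.85 in the 19 WT libraries. The 3 lowest WT libraries were WT_abx 4 at 7.48, WT_acetate 2 at 7.80 and WT_acetate 5 at 8.08, against at least 8.22 in the other WT libraries. The mean of 4 Y-linked genes went against the labelled sex in 4 libraries, WT_acetate 2, WT_acetate 4, WT_acetate 5 and WT_abx 3. All libraries were kept as labelled. KO_acetate 1 carried striatal markers: the mean deviation of 12 striatal projection neuron genes from their means over all libraries was 2.97 there and at most 0.38 elsewhere, that of 10 oligodendrocyte genes was 1.87, and that of 8 cortical excitatory genes was -1.0. Striatal projection neurons are themselves GABA neurons. In WT_abx 4 the meninges and choroid plexus markers stood 3.42 above their mean over all libraries. Depth ran from 12772454 to 28027869 reads.

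Levels of the members are compared between genes per kilobase of exon. The peptides cholecystokinin (Cck, 7.75 log2 CPM per kb) and somatostatin (Sst, 7.60) had the highest mean levels, followed by the GABA-B subunit Gabbr1 (6.80), neuropeptide Y (Npy, 6.42) and Gabbr2 (6.05). Cck is also made by cortical excitatory neurons. The 5 genes of GABA synthesis to breakdown lay close together, between 4.51 for Gad2 and 5.26 for the vesicular GABA transporter Slc32a1. The 9 GABA-A subunits spanned 1.27 for Gabrg1 to 5.05 for Gabra3. Gamma synuclein (Sncg), a gene of a subset of Cck interneurons, was the lowest at -0.03 per kb, with 8 to 36 reads in a library, so its values carry the largest counting error of the list.

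**Figure D1:**
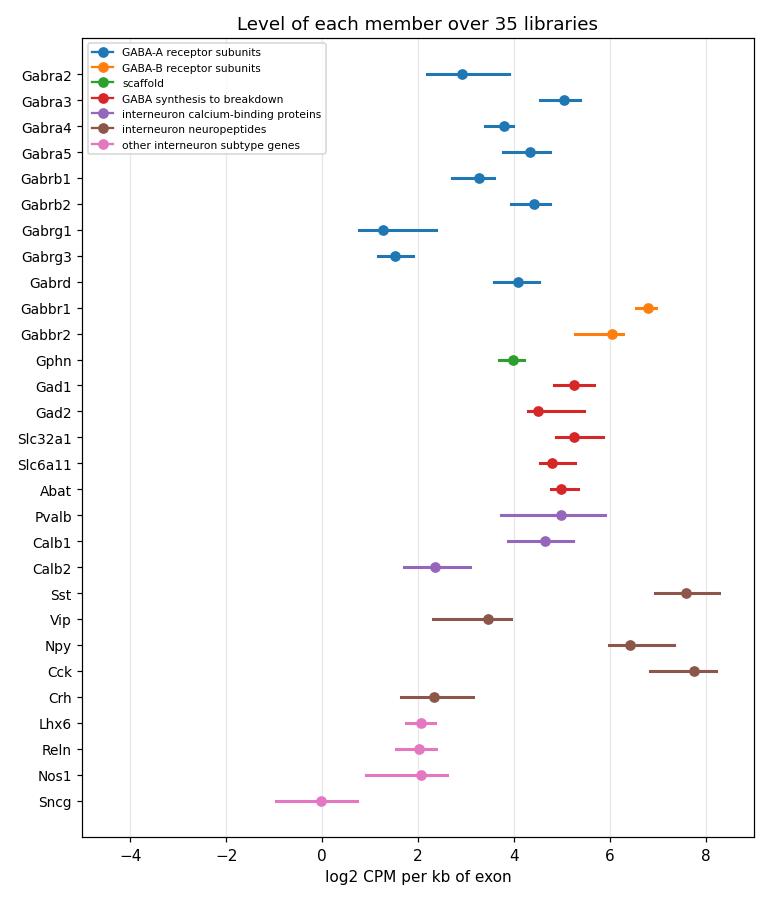
Mean level of each of the 29 members (points, x axis, log2 CPM per kb of exon) and its range over the 35 libraries (lines), coloured by subclass. Cck and Sst lie highest, Sncg lies lowest, and Pvalb has the widest range.

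The members differed widely in how much they varied between libraries of a group. Differences between the sexes were not removed from this spread. The SD of the log2 CPM values within groups was largest for parvalbumin (Pvalb, 0.48, percentile 89.7 of all genes), Sncg (0.43), the GABA-A subunit Gabra2 (0.40), and corticotropin-releasing hormone (Crh) and neuronal nitric oxide synthase (Nos1), both 0.37. It was smallest for Gabbr1 (0.09), for gephyrin (Gphn, 0.11), which anchors GABA-A receptors at the synapse, and for the GABA-degrading transaminase Abat (0.11). The median SD was 0.20 for the members and 0.17 for all genes. The 8 groups held a median of 17.5% of a member's variance and 21.6% for all genes. Gabra5 had the highest share, 41.0%, and Gabbr1 the lowest, 7.6%. Punches of bulk tissue hold many cell types, so fewer cells of a type and less RNA per cell cannot be told apart in any of these values.

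The promoters of Sst and of vasoactive intestinal peptide (Vip) are shown for 2 reasons. Sst gave the smallest unadjusted p of any member in a genotype comparison. Of the 24 members with a RefSeq promoter entry, only these 2 hold the letters TGACGT in the bases searched. For each gene 1 RefSeq start was used, the nearest to the annotated start. It lay 276 bases from the annotated start for Gphn, 683 for Gabrb2, 9057 for Gad1 and 85807 for Nos1. The 250 bases before the annotated starts of these genes were therefore not searched. For the other members the distance was at most 192 bases (Gabrb1), so those bases were searched in part or in whole. TGACGTCA is the cyclic AMP response element, first described in the somatostatin promoter. The 250 bases before each RefSeq start (GRCm38.p6) are printed 5′ to 3′ on the strand of the gene, with TGACGT on either strand in capitals. The Sst window is chr16:23890845-23891094 on the minus strand, and the Vip window is chr10:5638968-5639217 on the plus strand.
Sst: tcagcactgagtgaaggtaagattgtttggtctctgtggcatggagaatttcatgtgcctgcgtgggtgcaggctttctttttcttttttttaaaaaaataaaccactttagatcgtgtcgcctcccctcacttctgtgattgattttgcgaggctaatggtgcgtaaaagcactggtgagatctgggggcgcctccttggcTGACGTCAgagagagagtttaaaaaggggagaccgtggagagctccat
Vip: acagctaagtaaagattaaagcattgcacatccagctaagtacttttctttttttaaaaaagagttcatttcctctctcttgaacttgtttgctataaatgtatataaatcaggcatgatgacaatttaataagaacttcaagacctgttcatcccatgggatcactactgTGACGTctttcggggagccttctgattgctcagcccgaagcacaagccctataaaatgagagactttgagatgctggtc
In Sst the match starts 48 bases before the start, and because TGACGTCA reads the same on both strands it matches on each. In Vip the match, TGACGT followed by ct, starts 79 bases before the start. TGACGT occurs on either strand in the same window of 6.47% of the 32851 promoters of the table, and TGACGTCA in 1.55%. The deviations of Sst and Vip from their group means had Pearson r = -0.07 (permutation p = 0.69) and Spearman rho = -0.007 (permutation p = 0.969) over the 35 libraries, so the levels of these 2 genes did not move together detectably. The adjusted values over all 406 pairs of members were 0.78 and 0.987, and r without the 2 libraries farthest from the median of Sst was -0.037.

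No member passed the threshold of adjusted p under 0.05 (limma, Benjamini-Hochberg over 14870 genes) in any of 18 comparisons, and the effects are given below as sizes with their errors. A log2 fold of 1 is a doubling, and each fold is adjusted for the labelled sex. Female and male libraries were 3 and 3 in WT_control, 2 and 2 in KO_control, 2 and 2 in WT_abx and 1 and 2 in KO_abx. They were 1 and 4 in WT_acetate, 2 and 3 in KO_acetate, 1 and 3 in WT_abx_and_acetate and 3 and 1 in KO_abx_and_acetate. Values by library, and whether groups overlap, are not adjusted for sex. Comparisons within a genotype share their control libraries, and those over treatments or backgrounds average the same libraries, so they are not separate evidence.

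Averaged over the 4 treatments, KO and WT differed little in the members. Of the 29 log2 folds of KO against WT, 12 were above 0 and 16 below, with Gabbr1 at 0.00. The median was -0.01, against 0.00 for all genes, and 28 of 29 had a 95% interval inside -0.5 to 0.5. The exception was Pvalb, with an interval from -0.56 to 0.08. No member passed limma's adjusted threshold, where 0.0202% of all genes did, and 2 members had an unadjusted p under 0.05, where 5.25% of all genes did. These were Gabrd and Sst.

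Gabrd encodes the delta subunit of extrasynaptic GABA-A receptors, which carry tonic inhibition. In control it was 5.59, 5.70 and 5.80 log2 CPM (lowest, median and highest) in the 6 WT libraries and 5.33, 5.57, 5.69 and 5.86 in the 4 KO libraries. With acetate it was 5.66, 5.63, 6.05, 5.83 and 5.51 in WT and 5.65, 5.10, 5.55, 5.61 and 5.35 in KO. With antibiotics plus acetate it was 5.67, 5.77, 5.70 and 5.80 in WT and 5.51, 5.59, 5.27 and 5.38 in KO. The genotypes overlapped in control and with acetate, and with antibiotics plus acetate every KO library was below every WT library. With antibiotics alone the values were 5.66, 5.52, 5.34 and 5.80 in WT and 5.26, 5.67 and 5.73 in KO, with overlap. The log2 fold of KO against WT over treatments was -0.185 (SE 0.061, 95% interval -0.309 to -0.061, unadjusted p = 0.00474, adjusted p = 0.928). It lay between -0.212 and -0.148 when any library was left out. It was -0.257 once the 4 libraries with Y-linked genes at odds with their sex label were left out. Within groups Gabrd had r = 0.586 with astrocyte markers over the 35 libraries (statistics below), and r = 0.524 with endothelium markers (permutation p = 0.00129, adjusted p = 0.0125; rho = 0.542, permutation p = 0.00105, adjusted p = 0.0152; r = 0.46 without the 2 farthest libraries). The median fold over treatments was -0.044 for the 7 astrocyte markers, with 3 above 0, and -0.139 for the 5 endothelium markers, with 0 above 0. Their part in the Gabrd difference was not tested.

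Sst is the peptide of the somatostatin interneurons, which inhibit the dendrites of pyramidal cells. In control it was 6.88, 7.09 and 7.25 (lowest, median and highest) in WT and 7.08, 7.22, 7.42 and 6.84 in KO. With acetate it was 7.06, 7.17, 6.63, 7.01 and 7.36 in WT and 7.51, 7.12, 7.43, 7.33 and 7.21 in KO. With antibiotics plus acetate it was 6.91, 7.14, 6.99 and 6.47 in WT and 7.26, 7.81, 7.2 and 7.30 in KO. The groups overlapped in control and with acetate, and did not overlap with antibiotics plus acetate, where WT_abx_and_acetate 4 was the lowest and KO_abx_and_acetate 2 the highest of all 35 libraries. With antibiotics alone, WT libraries were 7.37, 7.14, 7.12 and 6.84 and KO libraries 7.05, 7.23 and 7.02. The log2 fold over treatments was 0.216 (SE 0.073, 95% interval 0.067 to 0.365, unadjusted p = 0.00602, adjusted p = 0.928), and 0.281 without the 4 libraries that go against their sex label. Within groups Sst had r = 0.677 with 6 microglia markers. WT_abx_and_acetate 4 and KO_abx_and_acetate 2 were also the lowest and highest libraries for these markers, at -0.40 and 0.36 from their mean over all libraries. With antibiotics plus acetate, 6 of the 6 markers had a fold of KO against WT above 0, with a median of 0.228, and 2 had an unadjusted p under 0.05. The part of microglia content in the Sst difference was not tested.

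The remaining GABA-A subunits had log2 folds of KO against WT between -0.054 (Gabrb2) and 0.123 (Gabra5) over treatments. The GABA-B subunits were at 0.00 (Gabbr1) and -0.01 (Gabbr2), with 95% intervals of -0.072 to 0.072 and -0.150 to 0.125. Gphn was at -0.038. Among genes of GABA synthesis and clearance, the decarboxylases Gad1 and Gad2 were at -0.053 (SE 0.063) and 0.080 (SE 0.062), Slc32a1 was at 0.047 (SE 0.058), and the glial uptake transporter Slc6a11 was at -0.106 (SE 0.058, unadjusted p = 0.0775, adjusted p = 0.957). Without the 4 libraries that go against their sex label Slc6a11 was at -0.173, Gad1 at -0.111 and Slc32a1 at 0.008. Without KO_abx 1, Gad1 was at -0.016 and Slc32a1 at 0.089. Gad2 was at 0.027, and Slc32a1 at 0.016, without KO_acetate 1.

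Of the 3 calcium-binding proteins, Pvalb had the largest difference, -0.237 (SE 0.157, unadjusted p = 0.142, adjusted p = 0.957). This value was -0.406 without the 4 libraries that go against their sex label and -0.115 without KO_abx 1, the lowest Pvalb library of all. Calb1, calbindin, was at -0.101 and Calb2, calretinin, at -0.032. Among the other peptides Vip was at -0.061 (SE 0.090), Npy at 0.039, Cck at -0.054 and Crh at -0.013. The 4 other subtype genes, the interneuron transcription factor Lhx6, reelin (Reln), Nos1 and Sncg, had folds between 0.035 and 0.096. Vip turned to 0.002 without KO_acetate 1.

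**Figure D2:**
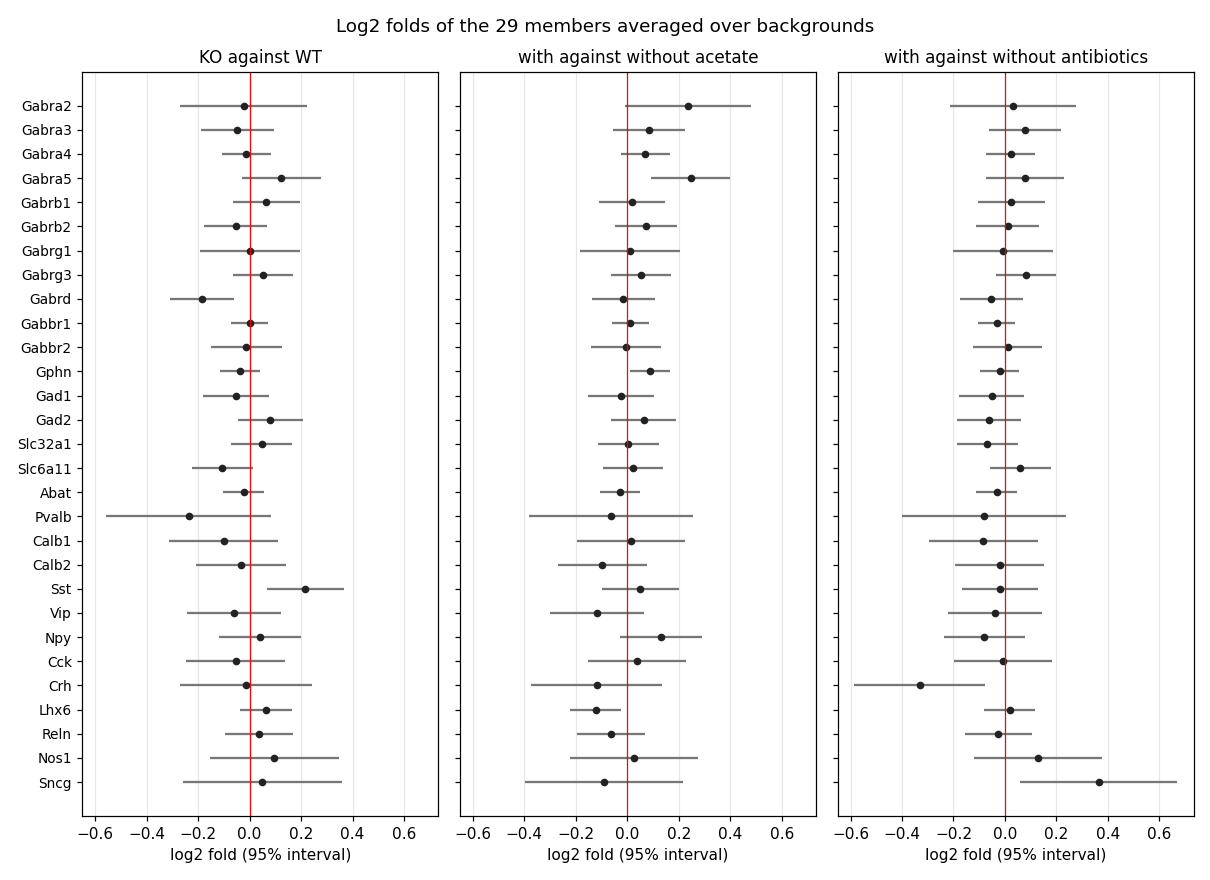
Log2 fold (x axis, points) with its 95% interval (lines) for each of the 29 members in KO against WT over treatments, with against without acetate, and with against without antibiotics. Intervals that miss 0 belong to Gabrd and Sst by genotype, Gabra5, Lhx6 and Gphn by acetate, and Crh and Sncg by antibiotics, and none of these passed the adjusted threshold.

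In control animals the genotype comparison gave no member past limma's adjusted threshold (background 0.0202%), and 1 member, Lhx6, at an unadjusted p under 0.05 (background 4.0%). Lhx6, which specifies interneurons born in the medial ganglionic eminence, was 4.01, 4.30 and 4.57 (lowest, median and highest) in WT and 4.56, 4.40, 4.61 and 4.49 in KO. The KO libraries lay in the upper part of the WT range, and the groups overlapped. Its log2 fold was 0.193 (SE 0.091, unadjusted p = 0.041, adjusted p = 0.9995), with 0.132 to 0.241 when any library was left out. Gabra5 was at 0.269 (SE 0.140) and Sncg at -0.468 (SE 0.281). The genes of GABA synthesis and the main class markers were close to 0: Gad1 -0.024 (SE 0.117), Gad2 0.041 (SE 0.115), Slc32a1 0.046 (SE 0.108), Pvalb -0.027 (SE 0.292), Sst 0.076 (SE 0.135) and Vip 0.077 (SE 0.166). The 95% interval lay inside -0.5 to 0.5 for 21 of 29 members. In 0 members did the KO and WT control libraries fail to overlap, against 0.773% of all genes.

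With antibiotics, 0 members passed limma's adjusted threshold (background 0.0134%) and 0 had an unadjusted p under 0.05 (background 3.78%). The smallest unadjusted p belonged to Slc6a11, which takes up GABA into astrocytes. It was 7.36, 7.11, 6.96 and 7.62 in WT_abx and 6.88, 7.16 and 7.03 in KO_abx. The ranges overlapped, and the highest value was that of WT_abx 4, the library with meningeal markers. Its log2 fold was -0.233 (SE 0.128, adjusted p = 0.995), and -0.120 without WT_abx 4. Gabra2, a subunit of synaptic receptors, was at 0.474 (SE 0.266) and 0.241 without KO_abx 1. Gad1 was at -0.230 (SE 0.139) and -0.094 without KO_abx 1. Gad1 was the 1 member whose groups did not overlap (5.33% of all genes): it was 8.32, 8.19, 8.30 and 8.26 in WT and 7.78, 8.16 and 8.19 in KO, so that the nearest libraries had the same value at 2 decimals.

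With acetate, 0 members passed limma's adjusted threshold (background 0.00672%) and 4 had an unadjusted p under 0.05 (background 5.97%): Gabrd, Gabra2, Gad2 and Sst. Gabrd was at -0.300 (SE 0.111, unadjusted p = 0.0112, adjusted p = 0.827), and at -0.461 without the libraries that go against their sex label. Gabra2 was 5.43, 6.34, 5.89, 6.19 and 6.52 in WT_acetate and 5.72, 5.12, 5.58, 6.11 and 5.45 in KO_acetate, with overlap. Its fold was -0.536 (SE 0.221, adjusted p = 0.827) and became -0.185 without the 4 libraries that go against their sex label, 3 of which are WT_acetate libraries. Gad2 was at 0.270 (SE 0.113), and at 0.073 without KO_acetate 1, where it was 8.01 against 6.94 to 7.16 in the other KO_acetate libraries. Markers of other tissue differed in the same comparison. The median fold was 0.798 for the 10 oligodendrocyte markers (10 above 0, 8 at an unadjusted p under 0.05), 0.731 for the 12 striatal markers (12 above 0, 5 at an unadjusted p under 0.05) and -0.336 for the 8 excitatory markers (3 above 0, 1 at an unadjusted p under 0.05), and 0 of these 30 genes passed the adjusted threshold. Without KO_acetate 1 these medians were 0.436, 0.096 and -0.018, with 0, 1 and 0 genes at an unadjusted p under 0.05. Their part in the differences of the members was not tested. In 0 members did the groups fail to overlap (0.491% of all genes).

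With antibiotics plus acetate, 0 members passed limma's adjusted threshold (background 0.0134%) and 2 had an unadjusted p under 0.05 (background 3.7%), Sst and Gabrd. The Sst values are given above. Its log2 fold was 0.531 (SE 0.153, 95% interval 0.218 to 0.844, unadjusted p = 0.0016, adjusted p = 0.862), and 0.365 without WT_abx_and_acetate 4. That library is the only female-labelled library of its group. Gabrd was at -0.335 (SE 0.127, adjusted p = 0.999) and Gabrb2 at -0.208 (SE 0.125), or -0.137 without KO_abx_and_acetate 2. The groups did not overlap in 3 members, Sst (higher in KO), Gabrd and Gphn (lower in KO), against 3.15% of all genes. Gphn was 5.90 to 6.01 in WT and 5.79 to 5.87 in KO, a fold of -0.105 with a 95% interval of -0.268 to 0.058.

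**Figure D3:**
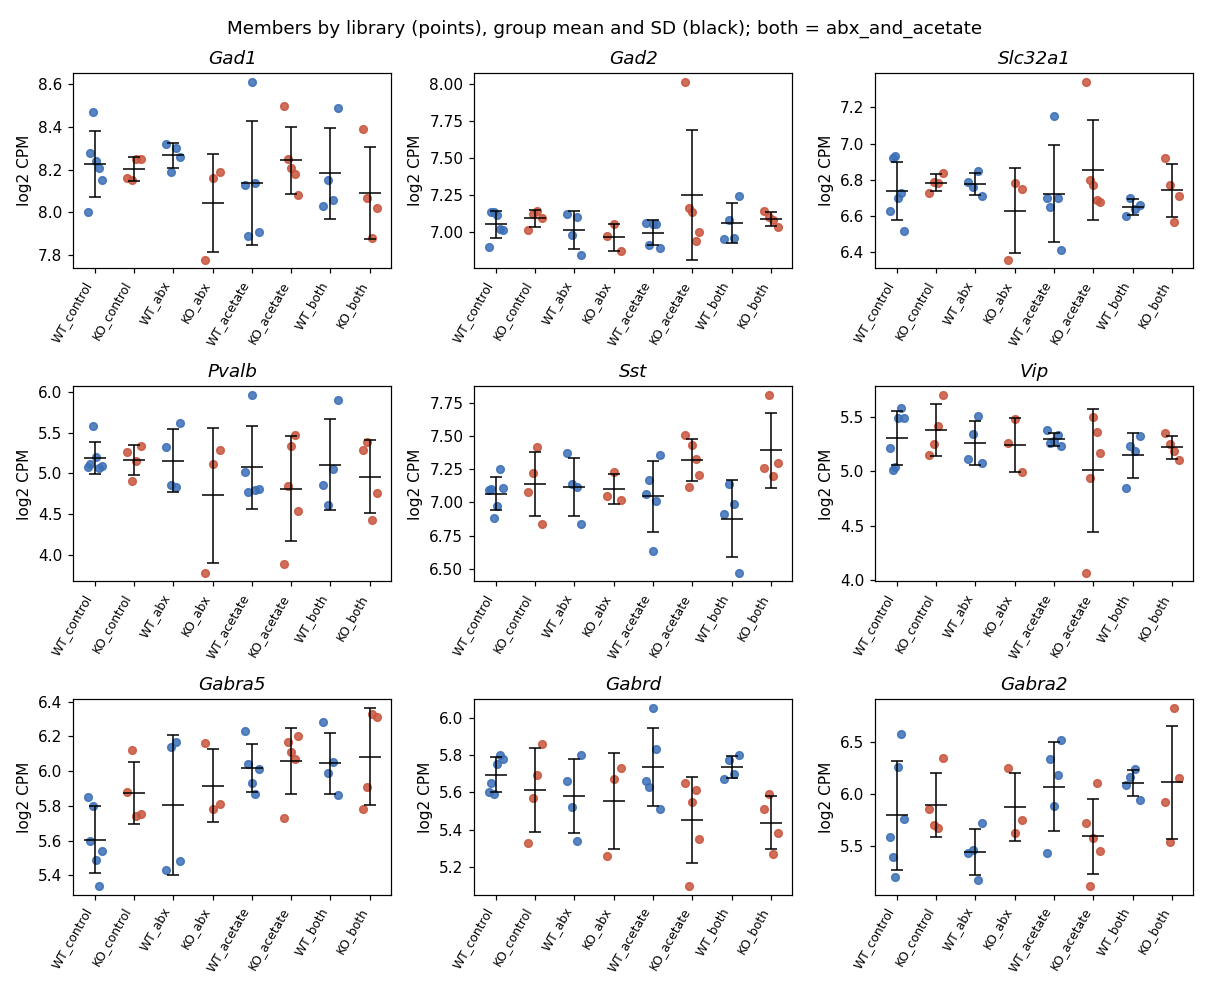
Log2 CPM (y axis) of 9 members in every library (points) by group (x axis; WT blue, KO red; both stands for abx_and_acetate), with the group mean and SD in black. KO_acetate 1 is the isolated high point of Gad2 and Slc32a1 and the low point of Vip, and Gabra5 is lowest in WT_control.

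Acetate, averaged over both genotypes and over mice with and without antibiotics, left every member's 95% interval inside -0.5 to 0.5. Of the 29 folds, 18 were above 0 and 11 below, with a median of 0.015 against 0.00 for all genes. In limma 0 members passed the adjusted threshold (background 0.0672%) and 3 had an unadjusted p under 0.05, which is below the background of 18.1% as a share of the list (10.3%). These were Gabra5, Lhx6 and Gphn.

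Gabra5, the alpha subunit of mostly extrasynaptic receptors, had the smallest adjusted p of any member. It was 5.34, 5.57 and 5.85 (lowest, median and highest) in WT_control, 6.23, 6.04, 5.93, 5.87 and 6.01 in WT_acetate, and 6.28, 5.99, 6.05 and 5.86 in WT_abx_and_acetate. Each WT library that received acetate was above each WT control library, by as little as 0.01. Groups failed to overlap in 1.65% of all genes for acetate against control in WT and in 4.73% for antibiotics plus acetate against control in WT, and in 1 member, Gabra5, in each. The 4 WT_abx libraries split into 5.43 and 5.48 against 6.14 and 6.17, which cover both ranges.
In KO the values were 5.88, 6.12, 5.74 and 5.75 with control, 6.16, 5.78 and 5.81 with antibiotics, 5.73, 6.17, 6.11, 6.07 and 6.2 with acetate, and 5.78, 5.91, 6.33 and 6.31 with both, and the groups overlapped. The main effect of acetate was 0.247 (SE 0.075, 95% interval 0.094 to 0.400, unadjusted p = 0.00248, adjusted p = 0.121). The adjusted p was 0.0665 at its lowest over the alternative fits of this comparison. Within groups Gabra5 was lower where astrocyte markers were higher (r = -0.846, statistics below). The median acetate fold of the 7 astrocyte markers was -0.095, that of the 5 endothelium markers, with which Gabra5 had r = -0.65, was 0.063, and their part in the Gabra5 difference was not tested.

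Lhx6 had an acetate main effect of -0.122 (SE 0.048, adjusted p = 0.196), and -0.085 without the 4 libraries that go against their sex label. In WT it was 4.20, 4.11, 4.35, 4.13 and 4.04 with acetate, 4.37, 4.37, 4.26 and 4.36 with both, and 4.26, 4.52, 4.56 and 4.37 with antibiotics. In KO it was 4.16, 4.49, 4.35, 4.31 and 4.39 with acetate, 4.39, 4.35, 4.22 and 4.18 with both, and 4.13, 4.42 and 4.50 with antibiotics. All these groups overlapped with the control libraries of their genotype, except KO_abx_and_acetate, where every library was below the 4 KO_control libraries (3.83% of all genes did not overlap there). Gphn had a main effect of 0.087 (SE 0.038, adjusted p = 0.227).

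Within genotypes, acetate against control gave 0 members past limma's adjusted threshold in WT (background 0.00672%) and 0 in KO (background 0%). At an unadjusted p under 0.05 there was 1 member in WT (background 9.41%), Gabra5 at 0.393 (SE 0.133, adjusted p = 0.300), and 1 in KO (background 13.0%), Vip at -0.356 (SE 0.173, adjusted p = 0.379). In WT the next were Lhx6 at -0.164 (SE 0.086), which was -0.066 without the libraries that go against their sex label, and Gabra2 at 0.360 (SE 0.214), which was then 0.010. Vip, made by interneurons that mostly inhibit other interneurons, was 5.15, 5.25, 5.42 and 5.70 in KO_control and 4.07, 4.94, 5.50, 5.36 and 5.17 in KO_acetate. The low value of 4.07 is KO_acetate 1, the library with striatal markers, and without it the fold was -0.139. In KO, Gphn was at 0.141 (SE 0.073) and Lhx6 at -0.180 (SE 0.094), and Gphn was the 1 member whose KO groups did not overlap (3.31% of all genes).

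Antibiotics plus acetate against control gave 0 members past limma's adjusted threshold in WT, where 0.726% of all genes passed, and 0 in KO (background 0%). At an unadjusted p under 0.05 there were 2 members in WT (background 14.4%), Gabra5 and Crh, and 1 in KO (background 7.42%), Lhx6. Gabra5 was at 0.428 (SE 0.141, unadjusted p = 0.00498, adjusted p = 0.139), and its adjusted p was 0.0627 in a fit of only the groups compared. Crh, a peptide of some Vip and Sst interneurons, was at -0.512 (SE 0.236, adjusted p = 0.317) and Gabra4, which pairs with the delta subunit, at 0.164 (SE 0.088). In KO, Lhx6 was at -0.219 (SE 0.100, adjusted p = 0.650), Sncg at 0.574 (SE 0.310) and Sst at 0.259 (SE 0.150), with Sst at 0.120 without KO_abx_and_acetate 2.

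Adding acetate to antibiotics gave 0 members past limma's adjusted threshold in either genotype (background 0% in each). At an unadjusted p under 0.05 there were 2 members in WT (background 6.12%), Gabra2 and Gabrb2, and 0 in KO (background 2.0%). Gabra2 was 5.43, 5.46, 5.17 and 5.72 in WT_abx and 6.09, 6.17, 6.24 and 5.95 in WT_abx_and_acetate. The groups did not overlap, as in 2 of the 29 members and 3.07% of all genes. The log2 fold was 0.734 (SE 0.248, unadjusted p = 0.0059, adjusted p = 0.720), the largest of the 29 in this comparison, and it was 0.599 to 0.884 when any library was left out. Gabra2 was also spread over 5.20 to 6.58 in WT_control, wider than the difference. Gabrb2, the beta subunit of many cortical receptors, was at 0.289 (SE 0.122) and Gabra4 at 0.192 (SE 0.096), and these were 0.180 and 0.086 without WT_abx 4. Gabrb2 was at 0.427 without the 4 libraries that go against their sex label. In KO the smallest unadjusted p values belonged to Sst (0.306, SE 0.163), Npy (0.306, SE 0.175) and Calb2 (-0.302, SE 0.192), and Sst was at 0.170 and Npy at 0.076 without KO_abx_and_acetate 2. Calb2 was at -0.195 in a fit of only the groups compared. In 0 members did the KO groups fail to overlap (5.14% of all genes).

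Antibiotics, averaged over genotypes and acetate, gave 0 members past limma's adjusted threshold (background 0%) and 2 at an unadjusted p under 0.05 (background 7.32%), with 12 folds above 0, 17 below and 27 of 29 intervals inside -0.5 to 0.5. The 2 members were Crh and Sncg, which had the lowest mean log2 CPM of the list (2.73 and -0.26). Per kb of exon Crh was at 2.33, above several members such as Gabrg1 (1.27). Crh had a main effect of -0.332 (SE 0.125, unadjusted p = 0.0125, adjusted p = 0.554). It was 2.48, 3.11 and 3.28 (lowest, median and highest) in WT_control, 2.88, 2.50, 2.84 and 2.42 in WT_abx, 2.58, 2.92, 3.44, 2.60 and 2.57 in WT_acetate and 2.38, 2.63, 2.59 and 2.13 in WT_abx_and_acetate. In KO it was 2.59, 2.68, 3.34 and 3.54 in control, 2.04, 2.82 and 2.46 with antibiotics, 3.12, 2.25, 3.13, 2.72 and 2.25 with acetate and 3.05, 2.95, 2.30 and 2.31 with both. Groups with and without antibiotics overlapped in each background. Crh followed astrocyte markers within groups (r = 0.586), whose median fold for antibiotics was -0.021, and the part of those cells was not tested.

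Sncg had a main effect of antibiotics of 0.364 (SE 0.150, adjusted p = 0.589), and 0.476 without the 4 libraries that go against their sex label. It was -0.97, -0.34, -0.89 and -0.62 in KO_control and 0.16, -0.17 and 0.49 in KO_abx, without overlap, as in 2 of the 29 members and 3.85% of all genes. Its fold in KO was 0.814 (SE 0.333, unadjusted p = 0.0206), and 0.508 without KO_abx 3. In WT_control it ran from -0.81 to 0.36 with a median of -0.20, and WT_abx, at 0.08, -0.27, -0.19 and 0.17, lay inside that range. Gabrg3, a gamma subunit, had the next smallest p in the main effect, at 0.081 (SE 0.057).

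Within genotypes, antibiotics against control gave 0 members past limma's adjusted threshold in WT (background 0%) and in KO (background 0.0134%). At an unadjusted p under 0.05 there were 0 members in WT (background 9.05%) and 2 in KO (background 3.3%), Sncg and Crh (-0.593, SE 0.277, and -0.395 without KO_abx 1). In WT, the smallest p belonged to Reln, an extracellular protein of superficial interneurons. It was 6.39, 6.69 and 6.94 (lowest, median and highest) in WT_control and 6.75, 6.39, 6.59 and 6.17 in WT_abx, with overlap. Its fold was -0.214 (SE 0.120, adjusted p = 0.622), that of Calb1 -0.314 (SE 0.193) and that of Gabrb1 -0.191 (SE 0.118). These 3 were at -0.114, -0.115 and -0.053 without WT_abx 4, and Gabrb1 was at -0.294 without the 4 libraries that go against their sex label. In KO, Calb2 was at 0.307 (SE 0.189). In 0 members did the WT groups fail to overlap (2.14% of all genes).

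Whether a treatment acted differently in KO and WT was tested by the interaction terms. In limma 0 members passed the adjusted threshold for antibiotics, acetate or both (background 0% in each). At an unadjusted p under 0.05 there were 0, 1 and 1 members (backgrounds 2.47%, 3.65% and 4.53%). For antibiotics the smallest p values belonged to Lhx6 (-0.277, SE 0.141), Sncg (0.632, SE 0.435) and Slc32a1 (-0.213, SE 0.168), of which Lhx6 was at -0.160 and Slc32a1 at -0.060 without KO_abx 1. Without KO_abx 3, Sncg was at 0.326 and Slc32a1 at -0.326. For acetate they belonged to Sncg (0.835, SE 0.394, unadjusted p = 0.0423), which was -0.94, 0.13, -0.91, 0.31 and -1.19 in WT_acetate and 0.23, 0.40, -0.33, -0.50 and -0.86 in KO_acetate, to Gabra2 (-0.636, SE 0.315) and to Vip (-0.399, SE 0.233). Gabra2 was at -0.285 and Sncg at 1.277 without the libraries that go against their sex label, and Vip was at -0.165 without KO_acetate 1. For both agents together they belonged to Sst (0.455, SE 0.205, unadjusted p = 0.0338, adjusted p = 0.999), which was 0.288 without WT_abx_and_acetate 4, to Lhx6 (-0.229, SE 0.137) and to Gabrd (-0.248, SE 0.170). Intervals of the interactions are wide: 6, 13 and 14 of 29 members had one inside -0.5 to 0.5.

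The other genes of the pathway were read from lists of GABA synapse genes (25 of 31 measured) and interneuron genes (35 of 38 measured). In limma 0 of the 25 and 0 of the 35 passed the adjusted threshold in any of the 18 comparisons. For KO against WT over treatments, 11 of 25 and 19 of 35 folds were above 0, with medians of -0.007 and 0.019, and 0 and 2 had an unadjusted p under 0.05, against 5.25% of all genes. The 2 were Crhbp, a binding protein for corticotropin-releasing hormone, at 0.164 (SE 0.067, adjusted p = 0.931), and the somatostatin-related peptide Cort, at 0.330 (SE 0.142, adjusted p = 0.931). With antibiotics plus acetate Cort was 2.29, 2.00, 1.93 and 1.26 in WT and 2.34, 3.71, 2.49 and 2.26 in KO.

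Many members varied together across libraries. This was measured on deviations from group means over the 35 libraries, so that group differences play no part, with 100000 permutations of the libraries. A permutation p of 1e-05 is the smallest these can give. The values of a library share its dissection, depth and scaling. Of 18 pairs of members listed by function, 10 had a Benjamini-Hochberg adjusted p under 0.05. Among these 10, Lhx6 with Pvalb lay nearest the threshold, at a permutation adjusted p of 0.0488, so the count is not firm. The 3 strongest were Gad1 with Slc32a1, Gabbr1 with Gabbr2, and Gabra5 with Gabrg3.

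Gad1, the main GABA-making enzyme, and Slc32a1, which loads GABA into vesicles, had r = 0.83 (permutation p = 1e-05, adjusted p = 6e-05) and rho = 0.843 (permutation p = 1e-05, adjusted p = 6e-05), and r = 0.836 without the 2 farthest libraries. The obligate partners Gabbr1 and Gabbr2 had r = 0.792 (permutation p = 1e-05, adjusted p = 6e-05) and rho = 0.855 (permutation p = 1e-05, adjusted p = 6e-05), and r = 0.767 without the 2 farthest. Gabra5 and Gabrg3, neighbours on chromosome 7, had r = 0.744 (permutation p = 1e-05, adjusted p = 6e-05) and rho = 0.797 (permutation p = 1e-05, adjusted p = 6e-05), and r = 0.729 without the 2 farthest. These 3 pairs kept r at 0.836, 0.859 and 0.729 without KO_acetate 1.

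Sst and Npy, which are made by overlapping interneurons, had r = 0.623 (permutation p = 7e-05, adjusted p = 0.000252) and rho = 0.632 (permutation p = 8e-05, adjusted p = 0.000288), and r = 0.692 without the 2 farthest libraries. Gad1 and Gad2 had r = 0.534 (permutation p = 0.00156, adjusted p = 0.00401) and rho = 0.683 (permutation p = 4e-05, adjusted p = 0.00018), and r = 0.558 without the 2 farthest. Gabra4 and Gabrb1 lie head to head on chromosome 5, where their annotated 5′ ends share 196 bases (GRCm38). They had r = 0.591 (permutation p = 0.00028, adjusted p = 0.00084) and rho = 0.423 (permutation p = 0.0122, adjusted p = 0.022), and r = 0.436 without the 2 farthest. The sources used here do not say whether counting used the strand. Gabra2 and Gabrg1 of the same cluster had r = 0.012 (permutation p = 0.946, adjusted p = 0.946) and rho = -0.04 (permutation p = 0.819, adjusted p = 0.819), and r = -0.006 without the 2 farthest. The markers of the largest classes, Sst and Pvalb, had r = -0.354 (permutation p = 0.0374, adjusted p = 0.0612) and rho = -0.288 (permutation p = 0.0945, adjusted p = 0.131), and r = -0.133 without the 2 farthest. That relation rests on those 2 libraries.

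All 406 pairs were then computed, a choice made after the listed pairs were seen. Of these 133 had an adjusted p under 0.05 (82 positive and 51 negative), 111 without KO_acetate 1 and 135 on deviations from group and sex. Pairs of other genes were not computed. Neither this count nor that of the listed pairs is therefore shown to be particular to the members. The strongest was negative: Pvalb and Nos1 had r = -0.862 (permutation p = 1e-05, adjusted p = 0.000203) and rho = -0.894 (permutation p = 1e-05, adjusted p = 0.00029), r = -0.837 without the 2 farthest libraries and r = -0.884 without KO_acetate 1. Pvalb was highest in WT_acetate 3 (5.96), where Nos1 was lowest (4.39), and lowest in KO_abx 1 (3.78), where Nos1 was highest (6.09). Nos1 is made by a sparse class of long-range Sst neurons and at low levels by others, and Pvalb by fast-spiking basket and chandelier cells. Gad1 and Pvalb had r = 0.551 (permutation p = 0.00058, adjusted p = 0.00413) and rho = 0.551 (permutation p = 0.0007, adjusted p = 0.00592), with r = 0.377 without the 2 farthest libraries. Gad1 and Nos1 had r = -0.681 (permutation p = 3e-05, adjusted p = 0.00042) and rho = -0.599 (permutation p = 0.00014, adjusted p = 0.00178), with r = -0.515 without the 2 farthest.

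**Figure D4:**
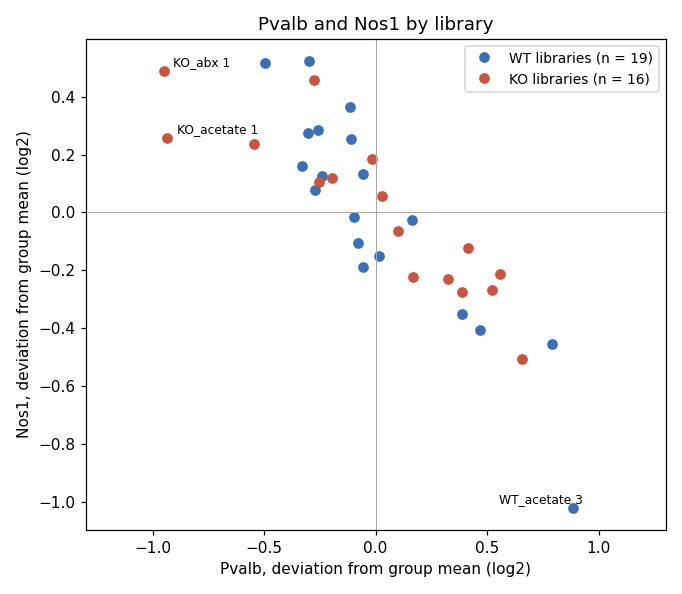
Deviation of Nos1 (y axis) against that of Pvalb (x axis) from their group means on the log2 scale, with 1 point per library (19 WT blue, 16 KO red). The points fall along a descending band in both genotypes, with WT_acetate 3 at the lower right end and KO_abx 1 and KO_acetate 1 at the upper left.

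A principal component analysis of the scaled deviations put 33.2% of the members' variance on component 1, then 15.4% and 12.5%. At the negative end of component 1 were Gabra3, Gabbr2, Gabrb1, Gabra4 and Cck, and at the positive end were Gad1, Slc32a1, Abat, Slc6a11 and Gad2. Excitatory neurons also make the receptor subunits, while the genes at the positive end make, load and clear GABA. The receptor subunits did not all lie at the negative end: the loading was 0.18 for Gabrd, 0.139 for Gabrg1 and -0.051 for Gabra2. Between the ends, Gabrg3 and Gad1 had r = -0.733 (permutation p = 1e-05, adjusted p = 0.000203) and rho = -0.755 (permutation p = 1e-05, adjusted p = 0.00029), and r = -0.736 without the 2 farthest libraries. KO_acetate 1 had the highest score on this component (1.66), followed by WT_acetate 3 (1.08) and WT_abx 4 (0.92). The components were not computed again without KO_acetate 1.

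**Figure D5:**
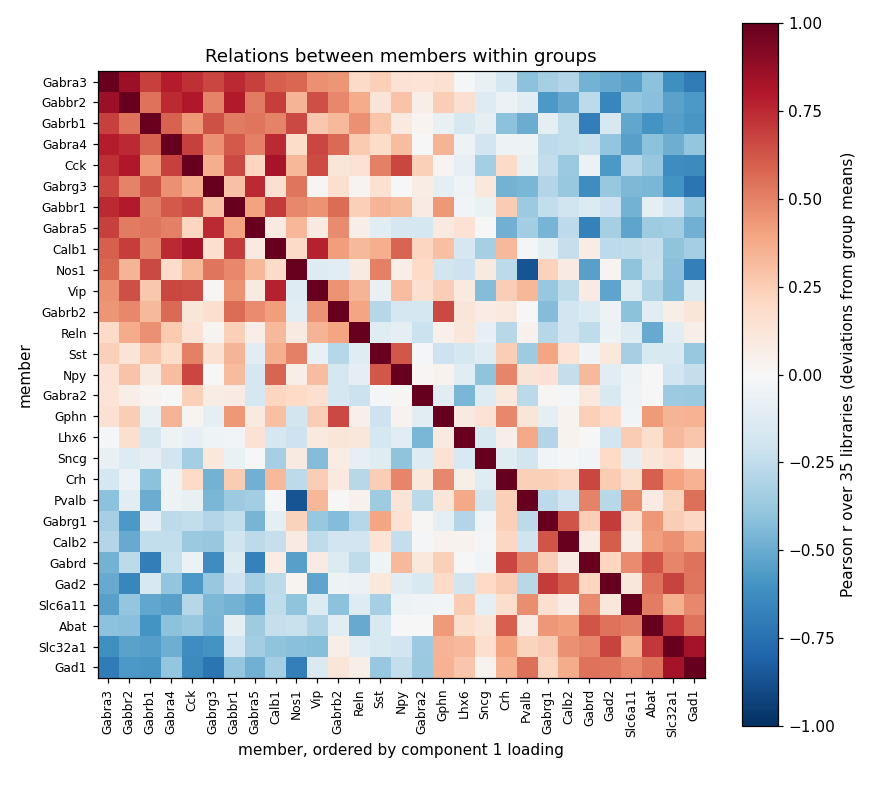
Pearson r between the deviations of every pair of the 29 members over 35 libraries (colour, red positive and blue negative), with members on both axes in the order of their loading on component 1. The block at the upper left holds receptor subunits with Cck and Calb1, the block at the lower right holds Gad1, Slc32a1, Abat, Slc6a11 and Gad2, and the darkest blue cell off the diagonal is Pvalb with Nos1.

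Markers of other cells moved with many members. Each member was set against the mean deviation of each marker list, with p-values adjusted over the 29 members of a list. The permutation p-values for marker lists are somewhat too small for the reason given for the pairs, so these counts may be too high. For marker lists, here and above, the 2 farthest libraries are those farthest from the median of the list's mean deviation. The share of all genes related to each list was not computed. The counts of members below are therefore not shown to be particular to the members. For the striatal list 11 members had an adjusted p under 0.05, and 1, Pvalb (r = -0.544), without KO_acetate 1. Gad2 had r = 0.779 with this list (permutation p = 0.00089, adjusted p = 0.00645) but rho = 0.138 (permutation p = 0.428, adjusted p = 0.564), and r = 0.152 without the 2 farthest libraries, so the relation rests on those libraries. Gabrg1, the least expressed GABA-A subunit here, had r = 0.705 with it (permutation p = 0.00088, adjusted p = 0.00645), rho = 0.318 (permutation p = 0.0643, adjusted p = 0.254) and r = 0.266 without the 2 farthest, and likewise rests on them.

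The other marker lists were added after the striatal result was seen, and for them too the share of all genes was not computed. The number of members past the adjusted threshold was 18 for cortical excitatory neurons (15 without KO_acetate 1), 15 for oligodendrocytes (12), 8 for astrocytes (7), 3 for microglia (3), 12 for endothelium (9), 1 for meninges and choroid plexus (1) and 15 for septum and thalamus (15). The septum and thalamus list held only 3 genes, and the meninges and choroid plexus list 5 measured genes. Gabbr2 had the largest r with the excitatory list, 0.872 (permutation p = 1e-05, adjusted p = 5.8e-05), with rho = 0.829 (permutation p = 1e-05, adjusted p = 7.25e-05) and r = 0.786 without the 2 farthest libraries. Gabra5 had r = -0.846 with the astrocyte list (permutation p = 1e-05, adjusted p = 0.000145), rho = -0.836 (permutation p = 1e-05, adjusted p = 0.000145) and r = -0.809 without the 2 farthest. The delta subunit gene Gabrd went the other way, with r = 0.586 (permutation p = 0.00016, adjusted p = 0.00116), rho = 0.609 (permutation p = 0.00011, adjusted p = 0.000797) and r = 0.631 without the 2 farthest. Crh had r = 0.586 with astrocytes too (permutation p = 0.00025, adjusted p = 0.00145), with rho = 0.601 (permutation p = 0.00014, adjusted p = 0.000812) and r = 0.611 without the 2 farthest. Slc6a11, which astrocytes are known to make, had r = 0.585 (permutation p = 0.00016, adjusted p = 0.00116), rho = 0.615 (permutation p = 0.0001, adjusted p = 0.000797) and r = 0.575 without the 2 farthest. Sst had r = 0.677 with the microglia list (permutation p = 4e-05, adjusted p = 0.000725), rho = 0.704 (permutation p = 2e-05, adjusted p = 0.00058) and r = 0.763 without the 2 farthest.

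The summed level of these markers overlapped between the genotypes in every treatment for all 8 lists. Over treatments, 12 of 12 striatal and 10 of 10 oligodendrocyte markers had a fold of KO against WT above 0, with medians of 0.278 and 0.132, and of 0.118 and 0.031 without KO_acetate 1, and 0 of them had an unadjusted p under 0.05 in all 35 libraries. For the 12 striatal markers it was 353.0 to 467.6 CPM in WT_control, 368.8 to 445.5 in WT_acetate and 370.1 to 1648.2 in KO_acetate, the last set by KO_acetate 1. For the 7 astrocyte markers it was 1074.8 to 1319.1 CPM in WT_control, 1005.1 to 1204.1 in WT_acetate and 925.2 to 1138.9 in WT_abx_and_acetate. For the 6 microglia markers it was 189.2 to 268.8 CPM in WT_abx_and_acetate and 250.5 to 320.1 in KO_abx_and_acetate. No marker of the striatal, astrocyte or microglia lists was at 0 reads in any library. The part of tissue composition in the relations between members was not tested.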

How the data were processed

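Bulk RNA from mPFC punches was made into directional libraries and sequenced in pairs of reads, per the labels' protocols. The authors deposited 1 matrix of log2 CPM values for 14870 genes in 35 libraries, with 0.5 read added before the log, in the form that limma's voom writes. The submitters' processing notes name limma. For the aligner, counter, genome build and gene filter: not given in the sources used here. Groups were taken from the labelled genotype and treatment, and 0 columns were unused. Whole reads were recovered from the values (100% within 0.01 of a whole number) and gave depths of 12772454 to 28027869 reads. No pair of libraries of a group agreed within sampling noise.

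All genes were fitted with limma 3.58.1 (R 4.3.3) with 8 group means and labelled sex over the 35 libraries, a prior variance that follows the mean, 18 contrasts, 2-sided tests and Benjamini-Hochberg adjustment over all genes. The fit was checked on simulated counts. Alternatives left out the sex term, low genes, 3 libraries of intermediate Shank3 or each library in turn, changed the reads added (2), used quantile normalization, voom weights or only the groups compared, or added RNA integrity. A fit leaving out the 4 libraries with Y-linked genes at odds with the sex label, and marker folds without KO_acetate 1, were chosen after seeing the data.

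The members and lists were chosen with earlier results of these data known. Folds are given for the 3 members with the smallest unadjusted p in each comparison and for Gad1, Gad2, Slc32a1, Pvalb, Sst and Vip by genotype, and other members stand beside them as part of their subclass. Every library's value is given for the member with the smallest p in each comparison, except that WT_control is given as its lowest, median and highest value. Values for other members shown by library, such as Gad1 with antibiotics, and pairs outside the list were chosen with their values in view, after the fits. Gene positions and exon lengths are from GENCODE vM21 (GRCm38), which matched 96.9% of symbols. Promoter sequences are from RefSeq (GRCm38.p6) and were found for 24 of 29 members, not for Gabrd, Abat, Calb1, Calb2 and Crh.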

Additional observations from a re-analysis of the deposited data

Results flagged for a closer look

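In 203 sets of 4 to 6 libraries (29 members by 7 groups), 19 had a highest or lowest library set apart from the rest by more than Dixon's limit. Chance alone flags about 1 in 20, or 10.2 here. No explanation was tested.

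The library KO_acetate 1, which carried striatal and oligodendrocyte markers, held 7 of them. It was high for Gad2 (8.01 log2 CPM), Slc32a1 (7.34), Abat (8.29), Gabrg1 (5.35) and Calb2 (3.88), low for Gabbr2 (8.01), and low for Gabra5 (5.73). WT_acetate 3 was high for Pvalb (5.96) and low for Nos1 (4.39). WT_abx_and_acetate 4, the library with the lowest Sst, was low for Gabra3 (6.84) and Gabbr2 (8.52), and WT_abx_and_acetate 3 was low for Lhx6 (4.26). KO_abx_and_acetate 2 was high for Sst (7.81) and low for Gphn (5.79), and KO_abx_and_acetate 4 was low for Slc6a11 (7.13) in a group whose other libraries were all at 7.16. In the control groups, WT_control 2 was low for Gphn (5.60), WT_control 3 was high for Pvalb (5.58) and KO_control 1 was low for Calb1 (6.42). WT_abx 4, the library with meningeal markers, was low for Calb1 (6.24).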

How the results depend on the processing

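In limma, 0 of 29 members passed the adjusted threshold in each of 424 alternative fits of the 18 comparisons, and the smallest adjusted p was 0.0627 (Gabra5, antibiotics plus acetate against control in WT, only the groups compared). Among 1595 alternatives for 65 named folds, 8 changed sign, all when a library was left out. Without single libraries the KO against WT fold in control ran from -0.073 to 0.025 for Gad1, -0.091 to 0.070 for Pvalb, -0.028 to 0.173 for Sst and -0.004 to 0.128 for Vip, and over treatments from -0.102 to 0.002 for Vip. These folds are smaller than their standard errors. The number of members related to striatal markers went from 11 to 1 without KO_acetate replicate 1. The count of 10 related pairs among the 18 listed stayed within 1.5 times under its alternatives, but the pairs changed. Lhx6 with Pvalb had a permutation adjusted p of 0.0488 for r, 0.127 for rho and 0.109 for r without KO_acetate 1. For Vip with Crh these were 0.204, 0.0115 and 0.00412. Groups of 3 to 6 libraries limit what could be detected, and Sncg (8 to 36 reads) is limited by depth. No paired analysis was possible because the labels give no replicate numbers that groups share.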
